A study of Mus musculus with 16 samples.

Results

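The Notch genes described here are 10 genes of mouse (Mus musculus), taken by their symbols from a table of read counts that lists 40840 genes. They are 3 receptors (Notch1, Notch2 and Notch3), 3 ligands (Jag1, Jag2 and Dll1) and 4 target genes (Hes1, Hey1, Heyl and Nrarp). RNA-seq was performed on p53-/-; Myc hepatoblasts, a cell line used as a model of hepatocellular carcinoma that is knockout for p53 and overexpresses the Myc oncogene, which all 4 groups share. Cells were treated with 8.5 µM sorafenib, a multikinase inhibitor given in advanced liver cancer, or with DMSO, its vehicle, for 48 hours or 7 days. Each of the 4 groups had 4 libraries. All 10 genes passed the filter on low counts, although Dll1 did so with at most 4 counts in any library.

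Notch signaling passes between neighbouring cells: a ligand of the Jagged or Delta-like family on one cell binds a Notch receptor on the next, γ-secretase cuts the receptor, and the freed intracellular domain enters the nucleus and joins the DNA-binding protein RBPJ to turn on target genes. Among these targets, Hes1, Hey1 and Heyl encode transcriptional repressors of the HES and HEY family, and Nrarp encodes a small ankyrin-repeat protein that limits the signal. In the liver, Notch signaling is best known for directing bipotent hepatoblasts toward the bile duct lineage.

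The 250 bases upstream of the annotated start were read for each gene from GRCm39. Those of 3 of the 4 target genes, whose transcripts are a readout of the pathway, are shown, and Hey1 is described without its letters. Capitals mark the letters TGGGAA or their reverse complement TTCCCA, the core of the RBPJ binding motif. The stretches lie at chr16:29883877-29884126 on the plus strand for Hes1, chr4:123127099-123127348 on the plus strand for Heyl and chr2:25070520-25070769 on the plus strand for Nrarp, each written 5′ to 3′.
Hes1: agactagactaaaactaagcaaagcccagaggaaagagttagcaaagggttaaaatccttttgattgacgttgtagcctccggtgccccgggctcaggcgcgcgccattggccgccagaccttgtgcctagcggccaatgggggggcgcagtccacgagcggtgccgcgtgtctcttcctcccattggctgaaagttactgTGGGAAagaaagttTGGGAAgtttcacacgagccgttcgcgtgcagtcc
Heyl: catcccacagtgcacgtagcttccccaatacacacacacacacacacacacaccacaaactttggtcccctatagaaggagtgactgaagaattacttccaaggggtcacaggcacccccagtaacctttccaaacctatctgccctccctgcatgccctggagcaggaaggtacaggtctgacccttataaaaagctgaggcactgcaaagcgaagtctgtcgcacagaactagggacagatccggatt
Nrarp: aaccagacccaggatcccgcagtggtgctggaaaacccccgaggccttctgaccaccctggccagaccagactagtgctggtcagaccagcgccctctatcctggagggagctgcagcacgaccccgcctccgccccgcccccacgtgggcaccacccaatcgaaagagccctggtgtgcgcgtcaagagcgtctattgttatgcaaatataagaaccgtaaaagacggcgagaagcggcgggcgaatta

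The Hes1 window held this hexamer at 2 places, beginning 49 and 35 bases before the start. The Hey1 window, not shown, held the reverse complement at 1 place, beginning 175 bases before the start. The hexamer was not found in the 250-base windows of Heyl and Nrarp. Over the Notch genes, 2 of 10 windows held it, against 22.7% of the 21770 windows of protein-coding genes. The letters CACNAG on either strand, the N box bound by HES proteins, were found in 6 of 10 windows against 36.5% of all. These matches describe the letters and not binding, which was not measured.

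The libraries held 16586254 to 30828427 counts, with a median of 26360677. Of the 40840 genes, 20444 with at least 10 counts in total were tested. Replicate 2 of the 48-hour sorafenib group stood apart: from a place on chromosome 15 onward in genome order, its genes lay at 0.604 of the level of the genes before it, relative to the other replicates. In the other 15 libraries the largest such step was 0.0923 on the log2 scale, against -0.73 here. Notch3, Dll1 and Hes1 lie in the affected region, and the 48-hour results for Notch3 and Hes1 are therefore given with and without this library. So are those for Notch2 and Jag2, which lie outside the region and were highest in this library among the 48-hour sorafenib libraries. Jag1, Nrarp and Heyl, also outside the region, were highest in this library too, Heyl at 1 count in each library of the group. Without this library their 48-hour log2 fold changes were 1.28, -2.62 and -4.54, and all still passed. Their values below include it unless stated. Dll1 is given as raw counts. The label of the cells was checked against marker genes. All 48-hour sorafenib marker values in this paragraph include the library that stood apart, and markers in its lowered region, such as Krt7, are affected by it. Of 9 hepatoblast and hepatocyte markers, Dlk1, Foxa2, Krt8 and Krt18 were present, whereas Hnf4a was at 0 in every library, Alb reached at most 1 count and Afp at most 14. The hepatoblast and hepatocyte markers summed to 32124 to 33600 normalized counts in DMSO and 10693 to 12566 in sorafenib at 48 hours, and to 16985 to 18831 and 5037 to 5199 at 7 days, most of it Dlk1. Within this list Foxa2 rose, with log2 fold changes of 1.77 at 48 hours and 0.84 at 7 days, whereas Dlk1, Krt8, Krt18 and Epcam fell at both times. Fibroblast and stellate markers were abundant, with summed normalized counts of 48248 to 51353 in DMSO and 133864 to 155136 in sorafenib at 48 hours, and of 66936 to 68665 and 114608 to 119728 at 7 days; Lrat was at 0. Col1a1 and Acta2 carried these sums, and the list did not move in 1 direction: at 48 hours and 7 days the log2 fold change was 3.81 and 1.39 for Acta2, but -2.11 and -2.26 for Pdgfra and -0.76 and -0.61 for Pdgfrb. Bile duct markers summed to 4663 to 4955 and 2961 to 3155 at 48 hours and to 5518 to 5897 and 2425 to 2662 at 7 days. This list too was mixed: Cftr (log2 fold changes 3.48 and 3.53) and Sox9 (1.64 and 1.37) rose, whereas Krt7 (-1.93 and -5.02) and Krt19 (-0.77 and -0.52) fell. Spp1 rose at 48 hours and fell at 7 days. Endothelial markers summed to 57.7 to 98.01 in DMSO and 119 to 153 in sorafenib at 48 hours, and to 36.8 to 60.4 and 197.7 to 229.8 at 7 days, most of it Kdr, with Cdh5 and Erg at no more than 2 counts, and of 5 leukocyte markers only Cd68 exceeded 4 counts. The part of these marker levels in the results below was not tested.

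Exposure to sorafenib for 48 hours was compared with DMSO to ask which Notch genes respond to the drug. Jag1 and Hes1 rose, and Notch3, Hey1, Heyl and Nrarp fell, each with no overlap between the groups. Notch2 and Jag2 were lower by a small margin, with sorafenib replicate 2, the library that stood apart, overlapping the DMSO libraries. With edgeR's quasi-likelihood test and Benjamini-Hochberg adjustment over all tested genes, 8 of 10 genes passed a false discovery rate (FDR) of 0.05, where 54.6% of all genes passed: 2 were higher, against 26.9% of all genes, and 6 lower, against 27.7%. Of the 8, 4 also changed at least 2-fold, against 18.0% of all genes. The groups did not overlap for 6 of 10 genes, against 48.0% of all genes. After 7 days, 7 of 10 passed, where 56.8% of all genes passed: 3 were higher, against 28.9%, and 4 lower, against 27.9%. At that time 2 of 10 passed with a change of at least 2-fold, against 20.6% of all genes, and the groups did not overlap for 8 of 10, against 56.8%. Values are normalized counts, scaled by trimmed mean of M-values (TMM) to the average library, and are given as mean ± SD of 4 libraries. In these bulk libraries, fewer cells expressing a gene and less RNA per cell cannot be told apart.

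**Figure D1:**
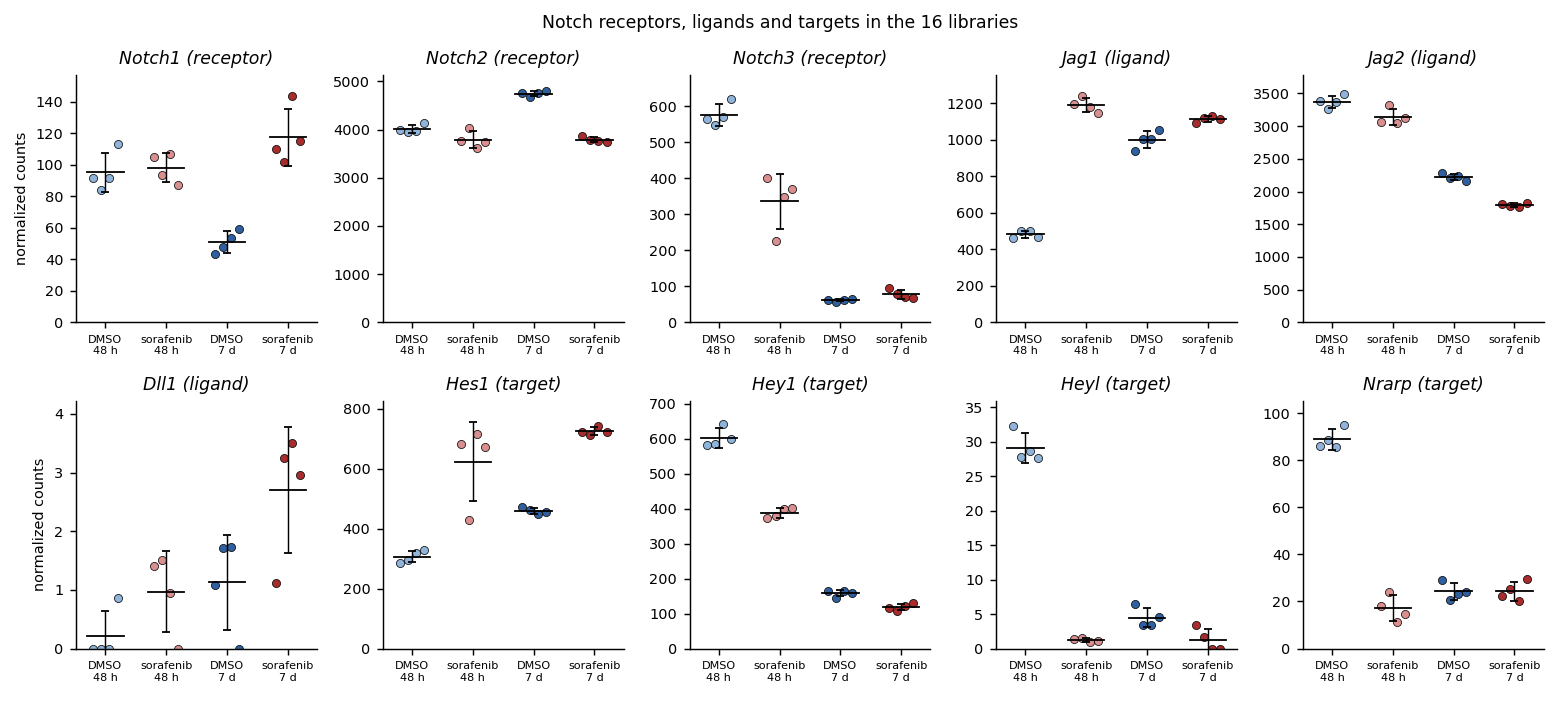
Normalized counts (y axis, linear, from 0) of the 10 Notch genes in the 16 libraries, by group (x axis); points are libraries, horizontal bars are means and whiskers are SD. At 48 hours the sorafenib libraries of Nrarp lie between 11.4 and 24.2, below all DMSO libraries, and the sorafenib libraries of Jag1 lie between 1147 and 1241, above all DMSO libraries.

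Among the receptors, Notch3 (chr17:32339794-32385893, minus strand) is a receptor best known from vascular smooth muscle and pericytes. At 48 hours its normalized counts were 565, 548, 571 and 621 in the DMSO libraries and 399.9, 227, 348 and 371 in the sorafenib libraries. Every sorafenib library lay below every DMSO library, and replicate 2, in whose lowered region the gene lies, was the lowest. The mean fell from 576 ± 31.5 to 337 ± 76.2, a log2 fold change of -0.77 (SE 0.109, FDR 4.67e-06). Without replicate 2 the sorafenib mean was 373 ± 25.8 (n = 3) and the log2 fold change -0.63, still past the threshold. At 7 days the gene was low in both groups, at 61.6, 57.4, 62.2 and 64.9 in DMSO and 94.5, 79.6, 69.1 and 67.9 in sorafenib. The sorafenib libraries all lay above the DMSO libraries by a narrow margin, and the log2 fold change of 0.33 did not pass in the fit of all 16 libraries (FDR 0.119), while it passed when only the 8 libraries of this time point were fitted (FDR 0.0306).

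Notch1 (chr2:26347915-26406675, minus strand), the receptor best studied in T cell leukemia, was present at low levels. At 48 hours it measured 91.9, 84.2, 91.9 and 113 in DMSO and 105, 93.8, 107 and 87.4 in sorafenib, and the groups overlapped. The log2 fold change was 0.05, with a 95% confidence interval of -0.23 to 0.32 (FDR 0.801). At 7 days it measured 43.2, 48.0, 53.5 and 59.4 in DMSO and 110.2, 102, 143 and 115 in sorafenib. All 4 sorafenib libraries exceeded all DMSO libraries, and the mean rose from 51.0 ± 6.96 to 118 ± 18.1, a log2 fold change of 1.20 (SE 0.135, FDR 1.87e-07). Its exons share 2410 bases with genes annotated on the opposite strand, of which the one in the count table, 0610009E02Rik, had 1 to 11 counts per library.

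Notch2 (chr3:97920800-98057677, plus strand), the receptor required for bile duct formation, was the most abundant of the 3 receptors in every group. At 48 hours it measured 3982, 3960.3, 3969 and 4129.7 in DMSO and 3767, 4043, 3618 and 3736.5 in sorafenib. Sorafenib replicate 2 lay within the DMSO range, so that the groups overlapped, and the difference was small (log2 fold change -0.08, SE 0.0326, FDR 0.0400). This call was lost without DMSO replicate 2 (FDR 0.0504) and with no filter on low counts (FDR 0.307). Leaving out sorafenib replicate 2, the library that stood apart, gave groups with no overlap and a log2 fold change of -0.11 (FDR 0.000283). At 7 days it measured 4751, 4683, 4761 and 4792 in DMSO and 3864, 3787, 3765 and 3747 in sorafenib. The groups were clearly apart, and the mean fell from 4747 ± 46.1 to 3791 ± 51.4, a log2 fold change of -0.32 (SE 0.0323, FDR 3.35e-08).

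Among the ligands, Jag1 (chr2:136923373-136958693, minus strand) is the ligand mutated in Alagille syndrome, in which bile ducts are too few. At 48 hours it measured 462, 498, 500.3 and 468 in DMSO and 1194, 1241, 1178 and 1147 in sorafenib. All sorafenib libraries lay far above all DMSO libraries, and the mean rose from 482 ± 19.7 to 1190.2 ± 39.4, a log2 fold change of 1.30 (SE 0.0445, FDR 1.86e-15). At 7 days the DMSO libraries had themselves reached 939.6, 1001, 1006 and 1055, and the sorafenib libraries measured 1093, 1117, 1130.0 and 1116. The groups did not overlap, but the difference was small (log2 fold change 0.15, SE 0.0414, FDR 0.00333).

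Jag2 (chr12:112871421-112893437, minus strand), the second Jagged ligand, moved the other way. At 48 hours it measured 3380.1, 3265, 3369 and 3489 in DMSO and 3059, 3325, 3051 and 3132 in sorafenib, with 1 sorafenib library inside the DMSO range. The log2 fold change of -0.10 (SE 0.0339) passed the test (FDR 0.0135) and was lost with no filter on low counts (FDR 0.118). The overlapping library was replicate 2, which stood apart. With it left out the groups did not overlap and the log2 fold change was -0.13 (FDR 0.000107). At 7 days it measured 2281, 2205, 2241 and 2168 in DMSO and 1815, 1773, 1769 and 1831 in sorafenib. No libraries overlapped, and the mean fell from 2224 ± 48.7 to 1797 ± 30.7, a log2 fold change of -0.31 (SE 0.0346, FDR 1.96e-07).

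Dll1 (chr17:15587276-15597134, minus strand), the Delta-like ligand of the set, was at or near the detection limit. It had 0, 0, 0 and 1 raw counts in DMSO and 1, 1, 1 and 0 in sorafenib at 48 hours, and 1, 2, 2 and 0 in DMSO and 1, 4, 4 and 3 in sorafenib at 7 days. A level of 3 counts, which a count of 0 still allows, corresponds to 2.44 to 4.54 normalized counts in these libraries, so no fold change is given. The neighbouring gene Fam120b overlaps its exons on the opposite strand and had 372 to 1286 counts.

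The 4 target genes did not move together. Hes1 (chr16:29882134-29886643, plus strand), which encodes the repressor HES1, measured 285, 297, 319 and 328 in DMSO and 683, 428, 715 and 671 in sorafenib at 48 hours. Every sorafenib library exceeded every DMSO library, with replicate 2, in its lowered region, far below the other 3. The mean rose from 307 ± 19.4 to 624 ± 132, a log2 fold change of 1.04 (SE 0.105, FDR 4.57e-08). Without replicate 2 it was 1.17 and the sorafenib mean 690 ± 22.5 (n = 3). At 7 days Hes1 measured 474, 463, 451 and 455 in DMSO and 724, 712, 744 and 724 in sorafenib. The groups lay far apart, and the log2 fold change was 0.66 (SE 0.0977, FDR 7.82e-06).

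Hey1 (chr3:8726956-8732385, minus strand), which encodes a related repressor, fell at both times. At 48 hours it measured 582, 586, 642 and 601 in DMSO and 373, 379.5, 399 and 401 in sorafenib. The groups did not overlap, and the mean fell from 602 ± 27.7 to 388 ± 13.8, a log2 fold change of -0.63 (SE 0.0571, FDR 8.34e-09). At 7 days it measured 164, 146, 164 and 159.5 in DMSO and 115, 108, 121 and 129.9 in sorafenib. All sorafenib libraries were again the lower ones, with a log2 fold change of -0.42 (SE 0.0746, FDR 6.49e-05).

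Heyl (chr4:123127349-123143682, plus strand), the third member of the HEY family, was nearly lost from the sorafenib libraries at 48 hours. It had 33, 32, 28 and 32 raw counts in DMSO and 1 count in each of the 4 sorafenib libraries. Scaled for depth, the 125 counts of DMSO against the 4 of sorafenib gave a level 24.0-fold higher in DMSO, with a 95% interval of 9.12 to 89.3 that covers counting error only (FDR of the fit 3.72e-08). At 7 days it had 6, 4, 4 and 5 counts in DMSO and 3, 2, 0 and 0 in sorafenib. The groups did not overlap after scaling, and the ratio was 3.76-fold in favour of DMSO (interval 1.36 to 12.9, FDR 0.0132). This call rests on few counts and was lost without 7-day sorafenib replicate 3 (FDR 0.0517), and the fitted log2 fold change ranged from -2.67 to -1.39 as single libraries were left out.

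Nrarp (chr2:25070770-25073351, plus strand), the feedback inhibitor, measured 86.0, 88.5, 85.8 and 95.1 in DMSO and 18.2, 24.2, 11.4 and 14.8 in sorafenib at 48 hours. The groups were far apart: the mean fell from 88.8 ± 4.33 to 17.2 ± 5.46, a log2 fold change of -2.43 (SE 0.173, FDR 2.09e-10). At 7 days it measured 29.2, 20.6, 23.3 and 24.1 in DMSO and 22.5, 25.2, 20.1 and 29.5 in sorafenib, with fully overlapping ranges. The log2 fold change was 0.01, with a 95% confidence interval of -0.38 to 0.40 (FDR 0.965). Genes on the opposite strand share 2233 of its 2582 exon bases, and the one in the count table, Gm13387, had 0 to 16 counts per library.

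**Figure D2:**
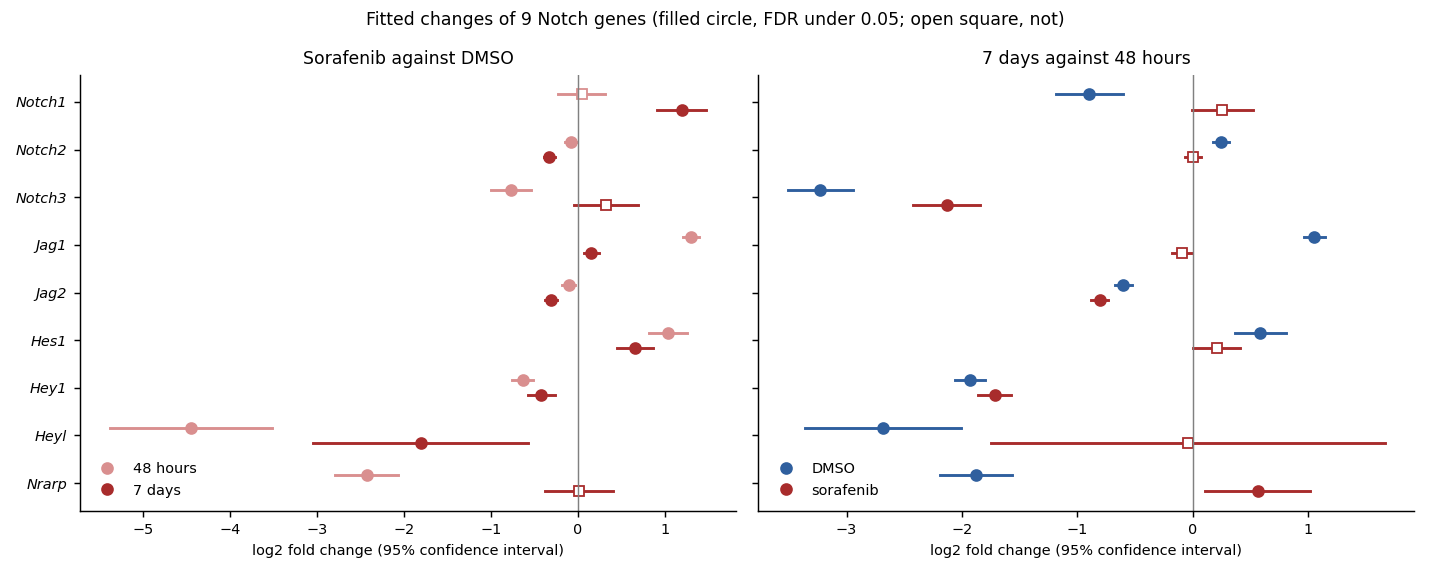
Fitted log2 fold changes (x axis) with 95% confidence intervals for 9 Notch genes (y axis), of sorafenib against DMSO at each time (left) and of 7 days against 48 hours within each treatment (right); filled circles passed an FDR of 0.05 and open squares did not, and Dll1 is left out for its low counts. Nrarp moves from -2.43 at 48 hours to 0.01 at 7 days and Jag1 from 1.30 to 0.15, while Notch1 moves from 0.05 to 1.20.

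The difference between the sorafenib effects at 7 days and at 48 hours was tested as an interaction, which asks whether sorafenib differed from DMSO alike at both times. Changes of the DMSO groups over time enter this difference. Length of exposure cannot be told apart here from time in culture, harvest and handling. The interaction passed for 8 of 10 genes, where 36.8% of all genes passed. With its sign kept, the effect was higher at 7 days for 4, against 15.5% of all genes, and lower for 4, against 21.3%. For Nrarp the log2 fold change went from -2.43 at 48 hours to 0.01 at 7 days. The difference was 2.44 (SE 0.262, FDR 3.08e-07), or 2.63 without the library that stood apart. The log2 fold change of Notch1 went from 0.05 to 1.20, a difference of 1.15 (SE 0.188, FDR 5.45e-05). The effect on Jag1 was lower at 7 days (log2 difference -1.15, SE 0.0608, FDR 1.02e-11), or by -1.13 without that library. For Notch3 the log2 fold change went from -0.77 to 0.33, a difference of 1.10 (FDR 0.000259), and of 0.96 without the library that stood apart. The 2 genes of small effect, Notch2 and Jag2, differed by -0.24 (FDR 0.000270) and -0.20 (FDR 0.00230), and the latter did not pass when libraries were scaled by total counts (FDR 0.175). The Hes1 difference of -0.38 (FDR 0.0459) was lost in 15 of 16 fits that each left out 1 library, with the FDR of the 16 fits between 2.43e-07 and 0.158; the exception was the fit without replicate 2 of 48-hour sorafenib, where it was -0.51. For Heyl the difference of 2.64 (FDR 0.0398) involves groups at or under the 3-count limit and was lost in 7 of 16 such fits, most strongly without 7-day sorafenib replicate 1 (1.78, FDR 0.373). The effect on Hey1 at the 2 times did not differ past the threshold (log2 difference 0.21, 95% confidence interval 0.01 to 0.41, FDR 0.0921), although it passed without 7-day sorafenib replicate 2 (0.26, FDR 0.0485).

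The same libraries were then compared between times within each treatment; these comparisons share their groups with those above, and time in culture, harvest and handling cannot be told apart. In DMSO, 9 of 10 genes differed between 7 days and 48 hours, all 9 with no overlap, where 49.4% of all genes passed and 50.8% did not overlap. Of these, 3 were higher, against 23.9% of all genes, and 6 lower, against 25.5%. Notch3 fell furthest of the receptors, from 576 ± 31.5 to 61.5 ± 3.11, a log2 fold change of -3.23 (SE 0.135, FDR 1.62e-13). Notch1 also fell (-0.90, FDR 1.72e-05), whereas Notch2 rose (0.24, FDR 2.60e-06). Jag1 rose from 482 ± 19.7 to 1000.3 ± 47.1 (log2 fold change 1.05, FDR 1.74e-13) and Jag2 fell (-0.60, FDR 1.44e-11). Hes1 rose (0.58, FDR 0.000103), while Hey1 (-1.93, FDR 4.43e-15) and Nrarp (-1.88, FDR 2.07e-09) fell. Heyl dropped from 125 to 19 counts, a 6.60-fold difference (95% interval 4.06 to 11.3). Dll1 passed neither this test nor any other in the fit of all 16 libraries, but passed here when DMSO 48-hour replicate 4, which held its only count in that group, was left out (FDR 0.0492).

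Between the sorafenib groups, 4 of 10 genes differed, where 39.7% of all genes passed, 1 higher, against 17.5%, and 3 lower, against 22.3%. The groups did not overlap for 4 of 10, against 35.8% of all. Notch3 (log2 fold change -2.13, FDR 2.03e-10), Hey1 (-1.72, FDR 1.15e-13) and Jag2 (-0.81, FDR 3.85e-13) were lower at 7 days, and without the library that stood apart Notch3 was at -2.26. Nrarp was higher by 0.56 with overlapping libraries (FDR 0.0453), a call that was lost in 5 of 8 fits that left out 1 library and was weakest without 48-hour sorafenib replicate 3 (0.40, FDR 0.220). In the fit without the library that stood apart, Nrarp was higher by 0.75 (FDR 0.0151). Jag1 (-0.09, FDR 0.0841), Notch1 (0.26, FDR 0.120) and Hes1 (0.21, FDR 0.105) did not pass, although Hes1 passed without 48-hour sorafenib replicate 3 (0.30, FDR 0.0312). Without replicate 2 of that group, the library that stood apart, the Hes1 value was 0.07 (FDR 0.290). For Notch2 the 95% confidence interval of the log2 fold change ran from -0.07 to 0.07. The exact permutation test of 4 libraries against 4, which cannot give a two-sided p below 0.0286, reached that value for each gene whose groups did not overlap.

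Levels were compared between genes only after division by exon length, as normalized counts per kilobase (kb) of exon. In DMSO at 48 hours Jag2 (476 ± 13.0 per kb) and Notch2 (356 ± 7.10) stood above the rest, followed by Hey1 (126 ± 5.77), Hes1 (90.9 ± 5.74), Jag1 (80.9 ± 3.30), Notch3 (64.0 ± 3.49) and Nrarp (34.4 ± 1.68). Notch1 (6.69 ± 0.878) and Heyl (5.49 ± 0.410) overlapped, and Dll1 was last at 0.0436. With sorafenib at 48 hours Jag1 (199.7 ± 6.60) and Hes1 (185 ± 39.2) moved above Hey1 (80.9 ± 2.88), without separating from each other. Without the library that stood apart, Hes1 was at 204 ± 6.66 per kb and Jag1 at 197 ± 4.01 (n = 3), still with overlap, and Notch3 was at 41.4 ± 2.87. At 7 days Notch2 led in both groups, at 421 ± 4.09 per kb in DMSO and 337 ± 4.56 in sorafenib, and Jag2 came next at 314 ± 6.87 and 253 ± 4.32. Nrarp, Notch3 and Notch1 overlapped in sorafenib at 7 days, at 9.42 ± 1.56, 8.63 ± 1.37 and 8.26 ± 1.27 per kb.

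Within each role the makeup differed between groups, as means of 4 libraries and shares of the summed counts per kb. Notch2 made up 83.5% ± 0.580 of receptor transcripts in DMSO at 48 hours and 97.6% ± 0.152 at 7 days, and Notch3 15.0% ± 0.421 and 1.58% ± 0.0629. In sorafenib the Notch3 share was 9.83% ± 2.30 at 48 hours, or 10.96% ± 0.489 without the library that stood apart (n = 3), and 2.44% ± 0.348 at 7 days. Jag1 made up 14.5% ± 0.773 of ligand transcripts in DMSO at 48 hours, 31.1% ± 0.629 in sorafenib at 48 hours, 34.8% ± 1.55 in DMSO at 7 days and 42.4% ± 0.654 in sorafenib at 7 days. The ratio of Jag2 to Jag1 was accordingly 5.89 ± 0.365, 2.22 ± 0.0657, 1.87 ± 0.129 and 1.36 ± 0.0373 in the same order. Among the targets, Hes1 made up 35.4% ± 0.929, 67.2% ± 5.65, 75.9% ± 1.31 and 86.2% ± 0.994 in that order, and Hey1 49.0% ± 1.18, 30.1% ± 4.46, 18.4% ± 0.849 and 9.88% ± 0.614. The ratio of Hes1 to Hey1 per kb was 0.724 ± 0.0350 in DMSO and 2.28 ± 0.463 in sorafenib at 48 hours, and 4.14 ± 0.261 and 8.76 ± 0.610 at 7 days, with no overlap between any of these 4 groups. Without the library that stood apart, the 48-hour sorafenib group had a Hes1 share of 70.02% ± 0.931, a Hey1 share of 27.9% ± 0.975 and a ratio of Hes1 to Hey1 of 2.51 ± 0.116 (n = 3).

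**Figure D3:**
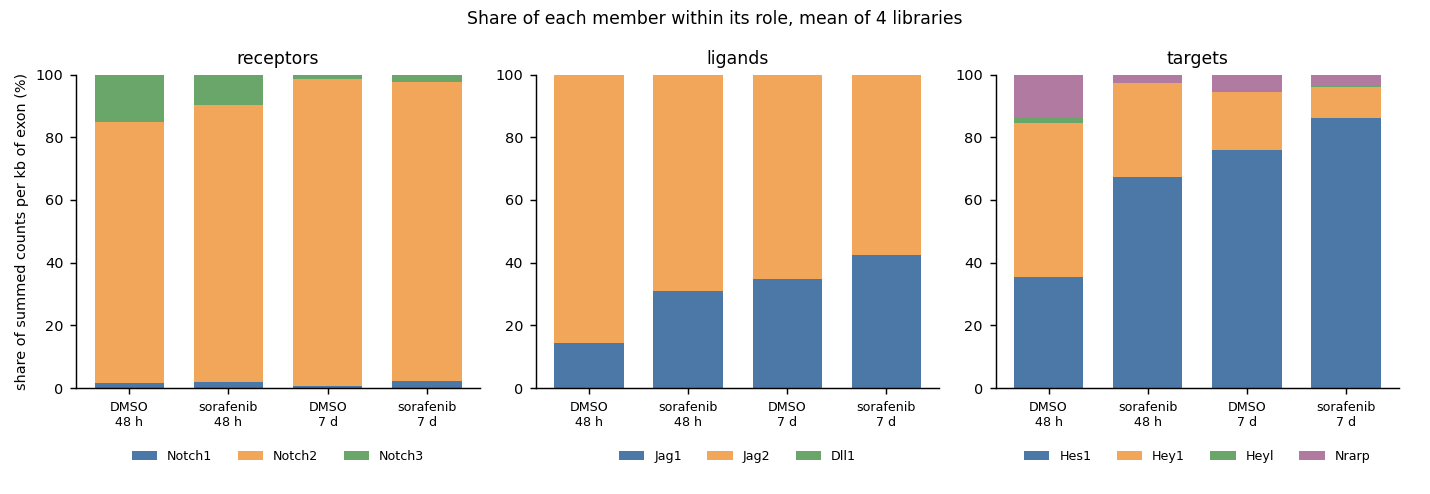
Share (y axis, percent of summed normalized counts per kb of exon, mean of 4 libraries) of each gene among the receptors, ligands and targets, by group (x axis). The Jag1 share goes from 14.5% to 42.4% and the Hes1 share from 35.4% to 86.2% between DMSO at 48 hours and sorafenib at 7 days, while Notch2 holds at least 83.5% of receptor transcripts.

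Another 73 genes of the pathway were listed by role, of which 67 had enough counts to be tested. At 48 hours 47 of the 67 passed (70.1%, against 54.6% of all genes), 24 higher and 23 lower, with a median log2 fold change of 0.03 against -0.05 over all genes. At 7 days 49 passed (73.1%, against 56.8%), 23 higher and 26 lower, with a median of -0.03 against 0.02. Most of these genes are widely expressed and have functions outside the pathway.

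Among receptors and ligands outside the 10 genes, 1 of 7 rose and 4 fell at each time. The noncanonical ligand Dlk1, an imprinted hepatoblast marker, fell from 32234 ± 841 to 10444 ± 847 at 48 hours (log2 fold change -1.63) and from 16766 ± 807 to 4020.2 ± 84.9 at 7 days (-2.06). Egfl7, a secreted vascular factor that binds Notch, fell by 1.37 and 1.26 on the log2 scale, and Mfap2, a microfibril protein that binds Jagged ligands, fell by 2.07 at 48 hours and by 2.62 at 7 days. Dlk2, the homolog of Dlk1, rose at both times (1.27 and 1.65).

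Of the 6 genes that glycosylate or process the receptor, 2 rose and 1 fell at 48 hours, and 3 rose and 1 fell at 7 days. Lfng, a Fringe glycosyltransferase that alters the response to Jagged ligands, rose from 339.8 ± 30.7 to 759 ± 44.6 at 48 hours (log2 fold change 1.15) and by 0.44 at 7 days. Pofut1, the enzyme that adds O-fucose to the receptor, rose by 0.47 and 0.48, and Poglut1, which adds O-glucose, was at -0.24 and -0.51. Among the 9 genes of receptor cleavage, 5 rose and 3 fell at 48 hours, and 2 rose and 4 fell at 7 days. Adam10, the sheddase, did not pass at 48 hours (0.03, FDR 0.426) and fell at 7 days (-0.64). Of the γ-secretase subunits, Psen2 rose at 48 hours (0.37) and fell at 7 days (-0.80), and Psenen fell at both (-0.54 and -0.45).

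Of the 14 genes of endocytosis and turnover, 6 rose and 4 fell at each time. Of the rises at 7 days, Dtx1 had no count in DMSO and a mean of 1.33 normalized counts in sorafenib. Its groups overlapped (FDR 0.0496). Mib2, an E3 ubiquitin ligase that acts on ligands, rose from 1028 ± 58.1 to 2258 ± 162 at 48 hours (log2 fold change 1.14) and from 508 ± 31.9 to 2073 ± 53.7 at 7 days (2.03). Of the Neuralized ubiquitin ligases, Neurl1a rose at both times (2.02 and 1.95), and Neurl1b did not pass at 48 hours (0.06, FDR 0.554) and fell at 7 days (-1.14).

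Among the 9 nuclear coactivators, 4 rose and 2 fell at each time. Rbpj, the DNA-binding partner of the receptor, rose from 1412 ± 43.2 to 1997 ± 54.7 at 48 hours (log2 fold change 0.50) and from 1648 ± 45.7 to 2683 ± 77.2 at 7 days (0.70). The Mastermind coactivators moved apart, Maml2 rising by 1.92 and 1.45 and Maml3 falling by 1.17 and 1.49. Among the 12 corepressors, 3 rose and 6 fell at 48 hours, and 2 rose and 7 fell at 7 days. The Groucho-type corepressors Tle1, Tle3 and Tle4 were all lower, at -0.68, -1.09 and -0.62 at 48 hours and at -0.54, -0.62 and -0.74 at 7 days.

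Other genes of the HES and HEY family gave 1 rise and 1 fall among 6 at 48 hours, and 4 rises and 1 fall at 7 days. Of the rises at 7 days, Hes5 had no count in any 7-day DMSO library, so that its fitted fold change is no measure of size. Bhlhe41, a circadian repressor of the wider family, rose by 0.20 and 1.30, and Bhlhe40 was at -0.24 and -0.75. The Bhlhe41 call at 48 hours, the only rise of this role at that time, was lost without replicate 2 of 48-hour sorafenib (0.14, FDR 0.0859). All 4 biliary genes that could be tested passed at both times, but not in 1 direction. Sox9, the transcription factor of the early bile duct, rose from 213 ± 26.6 to 664 ± 55.4 at 48 hours (log2 fold change 1.64) and from 349.7 ± 18.4 to 904 ± 47.4 at 7 days (1.37). The duct keratins fell, Krt7 from 1877 ± 65.3 to 489.9 ± 73.5 (-1.93) and from 3643 ± 128 to 111 ± 12.5 (-5.02), and Krt19 by 0.77 and 0.52 on the log2 scale. Krt7, Tle4, Poglut1, Dlk2, Neurl1a and Neurl1b lie in the region lowered in replicate 2 of 48-hour sorafenib. Without that library Krt7, Tle4, Poglut1, Dlk2 and Neurl1a were at -1.87, -0.57, -0.14, 1.33 and 2.14 at 48 hours and still passed, and Neurl1b was at 0.12 (FDR 0.298).

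**Figure D4:**
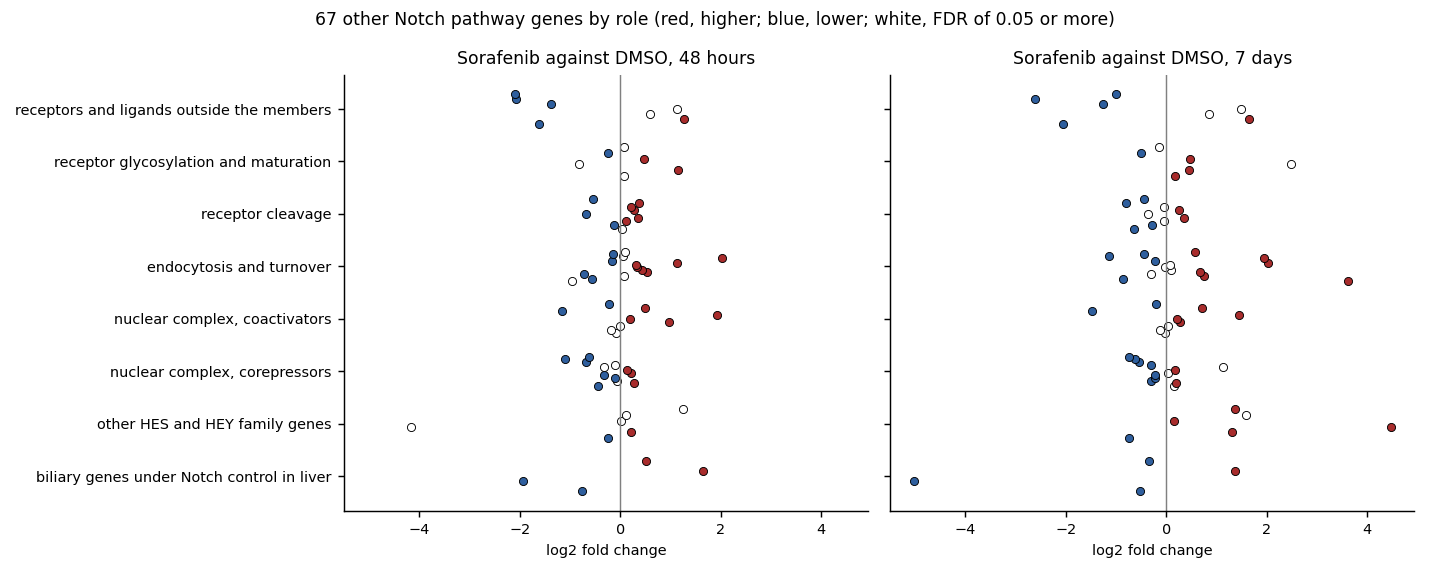
Fitted log2 fold changes (x axis) of sorafenib against DMSO at 48 hours (left) and 7 days (right) for 67 other Notch pathway genes, 1 point per gene, grouped by role (y axis); red genes were higher and blue genes lower at an FDR of 0.05, and white genes did not pass. Each role holds red and blue points at both times, and the blue point at -5.02 among the biliary genes at 7 days is Krt7.

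The genes whose levels over the 16 libraries were most like those of a Notch gene were found by Pearson's correlation of log2 values among 10584 genes, for the 6 Notch genes of sufficient level. These describe likeness over 4 groups of libraries that share depth and handling, and the 16 points are not independent. Jag1 was most like Wwc2 (r = 0.996) and Fn1, fibronectin (0.994). Hes1 was most like Flna, filamin A (0.993), and Psat1, an enzyme of serine synthesis (0.991). Jag2 was most like Idh2 (0.991) and the matrix metalloproteinase Mmp2 (0.990), and Hey1 was most like Marchf9 (0.994) and Dennd11 (0.993). Notch3 was most like Appl2 (0.989) and the imprinted noncoding RNA Rian (0.984), and Notch2 was most like Surf4 (0.985) and Ptpn1 (0.980). Hes1, Flna and Psat1 all lie in the region lowered in replicate 2 of 48-hour sorafenib. Over the other 15 libraries the genes most like Hes1 were Afdn (0.996) and Atrn (0.996), with Flna in place 10 (0.994) and Psat1 in place 24 (0.993). Without that library the closest gene was the same for the other 5 Notch genes, and the next closest was another for Notch3, Jag1 and Hey1.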

How the data were processed

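RNA from 16 samples of p53-/-; Myc hepatoblasts, in 4 groups of 4, was sequenced with a stranded mRNA kit. The authors deposited raw counts per gene, not normalized. Per the submitters' processing notes, STAR 2.7.1a, Subread featureCounts 2.0.6 and DESeq2 1.40.2 were used with mm39; the annotation and the strand setting of the counting are not given in the sources used here. Without strand, reads of a gene and of its antisense neighbour cannot be told apart. The labels do not say whether replicates were separate cultures, so p-values measure the spread between these samples, which may be technical. The deposited counts were tested with edgeR 4.0.16 in R 4.3.3 (TMM, glmQLFit, glmQLFTest, 1 coefficient per group, all 16 libraries), after removal of 20396 genes with fewer than 10 counts in total. P-values were adjusted over all 20444 tested genes by Benjamini-Hochberg, with an FDR limit of 0.05. Scripts were tested on simulated data. Intervals of count ratios cover counting error only. Exon lengths, positions and upstream windows came from GRCm39 with GENCODE M39. Per-library values were also compared with an exact permutation test. Alternatives were DESeq2 1.42.0, limma 3.58.1 voom, other scalings, filters and fitted libraries, a replicate block, a fold limit and leaving out each library. The Notch genes and the lists of other genes were chosen with earlier results of these data known. All 10 Notch genes were named; in each sorafenib comparison the text names up to 3 other pathway genes per role, those of the greatest fold change among genes past the FDR limit whose 8 libraries averaged 100 normalized counts or more, together with Rbpj and Adam10. Some items are not reported here. Levels, shares, ratios and likeness without replicate 2 of 48-hour sorafenib were added after seeing the data. No sign was found that replicate numbers pair the libraries: the deviations of same-numbered libraries correlated by -0.0270 to 0.0723. Such values cannot show that there was no pairing.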

Additional observations from a re-analysis of the deposited data

Results flagged for a closer look

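In 35 sets of 4 libraries tested, 2 held a library far from the other 3, and chance gives about 1 in 20. Notch2 in DMSO at 48 hours measured 4129.7 normalized counts in replicate 4, against 3960.3 to 3982 in the others. Hes1 in sorafenib at 48 hours measured 428 in replicate 2, against 671 to 715 in the others, and this gene lies in the region where that library was at 0.604 of its earlier level.

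The sorafenib effect differed between 7 days and 48 hours by the interaction test of edgeR for 8 of 10 genes. On the log2 scale the difference was 2.64 for Heyl (FDR 0.0398), 2.44 for Nrarp (FDR 3.08e-07), 1.15 for Notch1 (FDR 5.45e-05) and 1.10 for Notch3 (FDR 0.000259). It was -0.20 for Jag2 (FDR 0.00230), -0.24 for Notch2 (FDR 0.000270), -0.38 for Hes1 (FDR 0.0459) and -1.15 for Jag1 (FDR 1.02e-11). The Heyl value rests on groups with no more than 6 counts per library in 3 of 4 groups.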

How the results depend on the processing

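The 519 values under alternatives cover the Notch genes other than Dll1, in the 2 sorafenib comparisons and the interaction. Of these, 460 kept direction and side of the threshold, 46 lost the call, 4 gained it and 9 changed sign. The sign changes among them were those of Notch1 at 48 hours, at -0.028 with total counts and between -0.033 and 0.11 as single libraries were left out, and of Nrarp at 7 days, between -0.087 and 0.10. In sorafenib over time, outside these values, Notch2 (-0.0089 to 0.033) and Heyl (-0.91 to 0.37) also changed sign as single libraries were left out. With a change of at least 2-fold added to the FDR limit, the Notch genes called were 4 at 48 hours, 2 at 7 days, 5 for the interaction, 5 for DMSO over time and 2 for sorafenib over time. The same limit left 3690, 4202, 1965, 2242 and 1727 of all genes and 13, 16, 5, 7 and 10 of the other pathway genes, in that order. As single libraries were left out, the Notch genes called numbered 7 to 8, 6 to 7, 6 to 8, 9 to 10 and 3 to 4 in that order. Without division by exon length, 6 of 10 places in the order of levels in DMSO at 48 hours changed. Scaling shifted the median of well-expressed genes by less than 0.1 on the log2 scale at either time. With a replicate block, 7 Notch genes were called at 48 hours and 7 at 7 days; Notch2 at 48 hours (FDR 0.0726), the Heyl interaction (FDR 0.0757) and Nrarp in sorafenib over time (FDR 0.0583) lost their calls. Only 2 of 8 DMSO libraries correlated best with the sorafenib library of their own number. Counts of 3 or fewer limit what can be said of Dll1 and of Heyl under sorafenib. Dll1 passed at 7 days with limma voom (FDR 0.0428).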
